A study of Mus musculus with 6 samples.

Results

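The genes described here are 46 genes of the TGF-beta, BMP and activin pathways, covering ligands, latency proteins, receptors, secreted antagonists, Smad proteins, transcriptional repressors and target genes. They were chosen by gene symbol, with earlier results of these data known. Each of the 46 matched 1 locus that carried no other symbol, among 28539 loci in the expression table. RNA-seq measured polyadenylated transcripts of whole corneas from female C57BL/6J mice aged 6 to 8 weeks. The 3 groups of 2 samples were corneas collected at 5 and at 15 days following a burn with alkali (day 5 and day 15), which brings blood vessels into a tissue that normally has none, and uninjured corneas (day 0). The animals were not described as carrying any transgene or deletion, and how many corneas or animals went into a sample was not stated.

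TGF-beta ligands are secreted in a latent complex with LTBP proteins, and once released they bind the receptors TGFBR2 and TGFBR1, which phosphorylate Smad2 and Smad3. BMPs use other receptors of the same family and act through Smad1 and its relatives, and both branches share Smad4. Activins use the Smad2 and Smad3 branch and are neutralised by follistatin. In the injured cornea TGF-beta is known for turning quiescent stromal keratocytes into fibroblasts and myofibroblasts, which deposit scar matrix.

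Each value is an FPKM, a fragment count scaled to transcript length and library size, which allows levels of different genes to be set side by side. The authors gave 1 FPKM per group, pooled over its samples, with a lower and an upper bound, and the ranges after values are these bounds. Because there were 0 columns for single samples, no spread between animals and no p-value could be computed, and read depth is unknown. A gene was called apart between 2 groups on meeting 3 conditions together: the higher of the 2 FPKM values reached 1, the log2 ratio of (FPKM + 1) reached 1 in size, and there was no overlap between the intervals. Folds are ratios of FPKM with nothing added. The median half-width of the interval, over members with FPKM of at least 5, was between 48.0% and 50.1% of the FPKM in the 3 groups.

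The genes of activin A (Inhba) and follistatin (Fst) were higher and apart from the uninjured cornea at both times after the burn, and Tgfb3 and Ltbp2 at day 5. Bmp3 and Id2, by value the most abundant BMP ligand and Id gene of the uninjured cornea, were lower and apart at both times. At day 5 against day 0, 11 of the 43 members that reached an FPKM of 1 in one of these groups were apart, a share of 25.6%, where 5.92% of all 15576 loci measured were apart. Of these, 9 were higher, or 20.9%, where 3.42% of all loci were higher and apart. The 9 were Inhba, Fst, Grem1, Fstl1, Tgfb3, Ltbp2, Skil, Smad1 and Bmp1. Bmp3 and Id2 were lower and apart, 2 of 43 or 4.65%, against 2.5% of all loci. At day 15 against day 0, 5 of 41 members were apart, a share of 12.2%, against 4.72% of 15186 loci. Inhba, Fst and Bmp1 were higher and apart, 3 of 41 or 7.32%, against 2.91% of all loci. Bmp3 and Id2 were again lower and apart, 2 of 41 or 4.88%, against 1.81% of all loci. Both comparisons use the same day 0 samples.

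The members had a median log2 ratio of 0.47 for day 5 over day 0, where that of all loci was -0.09, and of 0.27 for day 15 over day 0, where that of all loci was -0.10. At day 5, 29 of the 43 members had a higher value than at day 0 and 14 a lower one. The remaining 32 measured members were not apart at day 5, and 36 were not apart at day 15. Bmp5, Bmpr1b and Nog stayed under an FPKM of 1 in all 3 groups.

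**Figure D1:**
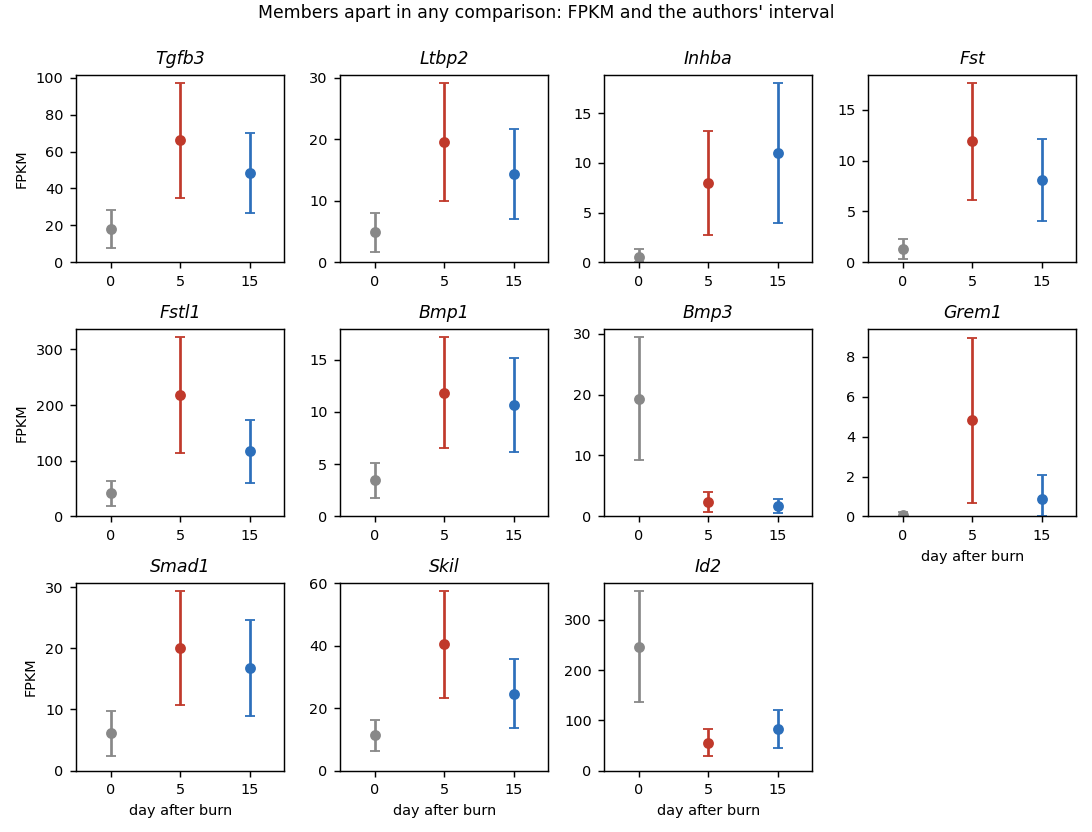
FPKM (vertical axes, linear, a scale for each panel) of the 11 members that were apart in any comparison, at days 0, 5 and 15 after the burn (horizontal axes). Points are the authors' FPKM pooled over the 2 samples of a group and bars are the authors' interval. The day 5 intervals of 9 genes lie above those of day 0, and those of Bmp3 and Id2 lie below.

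Among the higher members, the activin ligand gene Inhba had the largest log2 ratio at both times. Inhba (chr13:16002447-16028400 on mm10) encodes the subunit that pairs with itself to form activin A. Its FPKM was 0.51 (0 to 1.37) at day 0, 7.98 (2.71 to 13.2) at day 5 and 11 (4.0 to 18) at day 15. Both injured groups lay above the uninjured one without overlap, by 15.6-fold at day 5 and 21.5-fold at day 15, and these folds are imprecise because the day 0 interval reached 0. The lower bound at day 5 was 1.98 times the upper bound at day 0, and at day 15 it was 2.92 times that bound. Inhbb, the subunit of activin B, was at 1.03 (0.241 to 1.82), 1.20 (0.204 to 2.19) and 1.22 (0.277 to 2.16) FPKM on the 3 days. It was not apart, although intervals of this width would also hold a sizeable change. Inhba accounted for 33.1% of the summed FPKM of the 2 subunit genes at day 0, 86.9% at day 5 and 90.0% at day 15.

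Follistatin, the secreted protein that binds activin and blocks its access to receptors, was higher in the same samples. Fst (chr13:114452262-114458951) had an FPKM of 1.30 (0.28 to 2.33) at day 0, 11.9 (6.17 to 17.6) at day 5 and 8.07 (4.02 to 12.1) at day 15. It was 9.12-fold higher at day 5 and 6.19-fold higher at day 15, and apart from day 0 at both times. The ratio of Inhba to Fst in FPKM was 0.391 at day 0, 0.671 at day 5 and 1.36 at day 15, given as a description of the pooled values, since the Inhba and Fst intervals overlapped in all 3 groups. An antisense transcript, Gm47040, shares exon bases with Fst, and no strand setting was given.

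Fstl1 (chr16:37777055-37836522), a secreted follistatin-like glycoprotein of mesenchymal cells, was the most abundant of these regulators. Its FPKM was 41.7 (19.5 to 63.8) at day 0, 218 (113 to 322) at day 5 and 117 (59.5 to 174) at day 15. It was 5.22-fold higher and apart at day 5, while the day 15 interval overlapped that of day 0. Fstl3, which also binds activins, was measured on a locus spanning 125-fold the length of the gene model, and its value of 1.88 to 2.74 FPKM in the 3 groups, with each interval starting at 0, cannot be read as that of the gene.

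TGF-beta in these corneas was mostly Tgfb3 transcript. Tgfb3 (chr12:86056743-86079041), the isoform linked to scar-poor healing in skin, had an FPKM of 18.02 (7.72 to 28.3) at day 0, 66.1 (34.9 to 97.3) at day 5 and 48.3 (26.7 to 70.0) at day 15. It was 3.67-fold higher and apart at day 5. At day 15 it was 2.68-fold higher with an interval that overlapped that of day 0 by a small margin, 26.7 against an upper bound of 28.3. Tgfb2, an isoform of ocular tissues, had 3.10 (1.05 to 5.15), 6.37 (3.07 to 9.66) and 8.56 (4.34 to 12.8) FPKM at days 0, 5 and 15, and was not apart. Tgfb1, the isoform of platelets and macrophages and the one most often discussed in scarring, stood at 1.32, 2.32 and 1.48 FPKM, with intervals that overlapped at all 3 times. Tgfb3 made up 80.3% of the summed FPKM of the 3 ligand genes at day 0, 88.4% at day 5 and 82.8% at day 15, and its interval lay above that of Tgfb2 in every group. The Tgfb3 exons share bases with the antisense genes Gm37804 and Gm48008.

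LTBP proteins anchor latent TGF-beta to the matrix. Ltbp2 (chr12:84783064-84879755), which binds fibrillin and, unlike its relatives, does not carry latent TGF-beta, was the one that was apart. Its FPKM was 4.85 (1.76 to 7.94) at day 0, 19.6 (9.95 to 29.2) at day 5 and 14.3 (6.97 to 21.6) at day 15, which was 4.04-fold higher and apart at day 5 and 2.95-fold higher and overlapping at day 15. Exons of D030025P21Rik overlap it on the other strand. Ltbp4 had 23.0 (10.8 to 35.2), 36.5 (18.7 to 54.3) and 47.2 (24.9 to 69.5) FPKM at days 0, 5 and 15, and was not apart. Ltbp1 was at 14.7 (6.25 to 23.1), 26.1 (12.5 to 39.8) and 21.6 (10.4 to 32.8). Ltbp3 was at 26.4 (6.11 to 46.7), 30.1 (11.4 to 48.8) and 29.8 (11.5 to 48.1), on a locus 1.73 times the annotated span. All 7 genes of this group had a higher value at days 5 and 15 than at day 0, and 2 of them (28.6%) were higher and apart at day 5, against 3.42% of all loci, and 0 at day 15, against 2.91%. With 7 genes, a count of 0 is near that share.

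**Figure D2:**
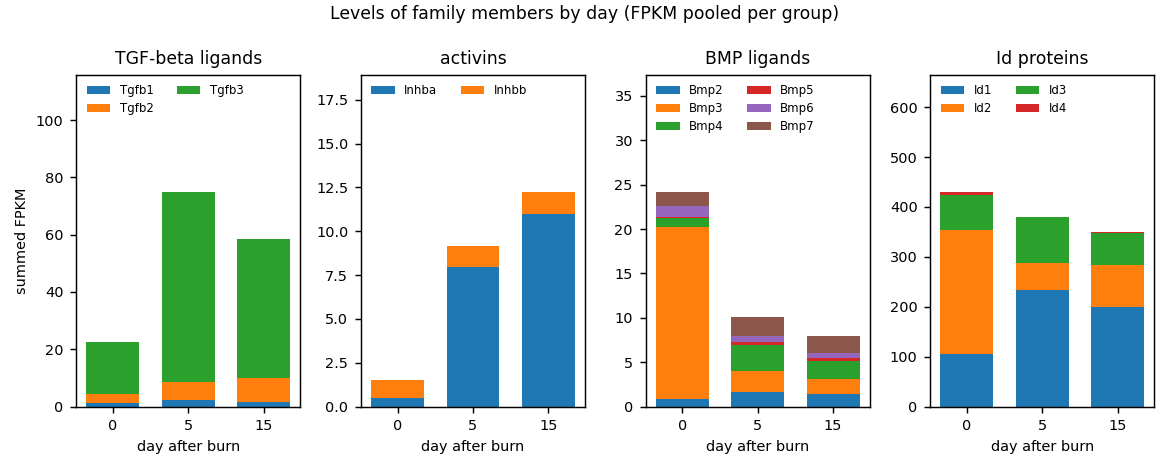
Summed FPKM (vertical axes, linear from 0) of the TGF-beta ligands, activin subunits, BMP ligands and Id genes at days 0, 5 and 15 (horizontal axes), with each gene as a segment. Tgfb3 and Inhba fill most of their bars after the burn, Bmp3 fills most of the BMP bar at day 0 alone, and Id1 takes the larger share of the Id bar that Id2 holds at day 0.

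Of the BMP ligands, Bmp3 was the gene that was apart. Bmp3 (chr5:98854110-98884440), an atypical BMP that binds activin type II receptors and opposes osteogenic BMP signalling, had an FPKM of 19.3 (9.30 to 29.4) at day 0, 2.40 (0.777 to 4.03) at day 5 and 1.66 (0.530 to 2.80) at day 15. It was lower and apart at both times, by 8.05-fold at day 5 and 11.6-fold at day 15. Bmp3 supplied 80.1% of the summed FPKM of the 6 BMP genes at day 0, and 23.8% and 21.0% at days 5 and 15.

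The other BMPs were near the limit of measurement. Bmp4, a BMP of stromal cells, had 1.01 (0 to 2.24), 2.91 (0.564 to 5.26) and 2.03 (0.136 to 3.93) FPKM at days 0, 5 and 15. Bmp7 was at 1.54, 2.1 and 1.92, Bmp2 at 0.873, 1.60 and 1.41, Bmp6 at 1.22, 0.759 and 0.586, and Bmp5 at 0.159, 0.334 and 0.316. None of these 5 was apart, and after the burn the intervals of neighbours in the order of BMP levels all overlapped. Gdf15, a stress-induced distant relative, was at 0.115 (0 to 0.286) at day 0, 3.38 (0 to 7.48) at day 5 and 1.07 (0 to 2.66) at day 15. The day 5 ratio was 1.98 on the log2 scale with overlapping intervals, so that it was not apart.

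Bmp1 (chr14:70474543-70520260), despite its name, is a metalloprotease that processes procollagens, lysyl oxidase and latent TGF-beta complexes. Its FPKM was 3.47 (1.80 to 5.14) at day 0, 11.8 (6.51 to 17.2) at day 5 and 10.7 (6.15 to 15.2) at day 15. The injured groups lay above the uninjured one without overlap, by 3.41-fold at day 5 and 3.07-fold at day 15, and Bmp1 did not pass at a pseudocount of 5 or at a 3-fold threshold.

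Among the secreted antagonists Grem1 stood out at day 5. Gremlin 1, encoded by Grem1 (chr2:113748675-113758648), binds BMP2 and BMP4 and keeps them from their receptors. Its FPKM was 0.0907 (0 to 0.232) at day 0, 4.82 (0.660 to 8.97) at day 5 and 0.880 (0 to 2.06) at day 15. Day 5 was higher and apart, with a log2 ratio of 2.41, and its lower bound was 2.84 times the upper bound of day 0. The plain fold of 53.1 rests on a day 0 value close to 0, and the call was lost when an FPKM of at least 5 was asked of the higher group or a pseudocount of 5 was used. At day 15 the intervals overlapped those of both other groups. Nog, another BMP antagonist, was at 0.231, 0.115 and 0.177 FPKM at days 0, 5 and 15. Chrdl1, a chordin-like antagonist, was at 1.27 (0 to 2.55), 0.668 (0.0387 to 1.30) and 0.846 (0.0789 to 1.61), and Bambi, a pseudoreceptor that dampens signalling, at 4.38 (1.44 to 7.32), 2.82 (0.790 to 4.85) and 3.28 (0.930 to 5.63). None of these 3 was apart.

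Promoters are shown for 3 members that carry the result, namely Inhba as the gene with the largest log2 ratio, Grem1 as the antagonist seen at day 5, and Id2 as the more abundant of the 2 genes that were lower and apart. Each is the RefSeq window of 250 bases before and 50 bases after the annotated start, written along the gene's own strand, on GRCm38.p6 (the assembly of mm10). The Inhba window is chr13:16011601-16011900 on the plus strand, the Grem1 window chr2:113758599-113758898 on the minus strand and the Id2 window chr12:25096043-25096342 on the minus strand. The measured Inhba locus begins at 16002447, upstream of the annotated start at 16011851, so that the Inhba window lies inside the locus. Capitals mark matches to GGCGCC, a GC-rich element bound by BMP-type Smads, to CAGACA, which holds a Smad binding element, or to TGANTCA, the AP-1 site.
Inhba: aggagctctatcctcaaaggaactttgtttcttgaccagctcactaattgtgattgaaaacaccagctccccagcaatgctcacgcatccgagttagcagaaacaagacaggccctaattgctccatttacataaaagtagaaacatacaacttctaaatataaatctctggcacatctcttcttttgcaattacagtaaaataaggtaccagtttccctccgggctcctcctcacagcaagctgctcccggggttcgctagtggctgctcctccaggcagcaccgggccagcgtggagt
Grem1: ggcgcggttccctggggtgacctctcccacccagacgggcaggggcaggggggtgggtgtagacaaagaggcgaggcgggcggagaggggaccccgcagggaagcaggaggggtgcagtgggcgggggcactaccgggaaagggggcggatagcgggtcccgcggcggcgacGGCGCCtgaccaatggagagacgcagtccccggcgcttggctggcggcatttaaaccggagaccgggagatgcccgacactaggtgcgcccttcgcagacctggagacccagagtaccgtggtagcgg
Id2: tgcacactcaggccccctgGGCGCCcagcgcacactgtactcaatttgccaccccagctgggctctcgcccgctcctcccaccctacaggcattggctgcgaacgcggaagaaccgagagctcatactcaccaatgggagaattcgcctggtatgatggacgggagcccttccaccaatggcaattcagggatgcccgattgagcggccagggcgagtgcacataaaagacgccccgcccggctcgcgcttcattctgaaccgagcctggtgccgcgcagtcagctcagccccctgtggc
On either strand, GGCGCC was found at position -78 of Grem1 and -231 of Id2, counted from the annotated start, and none of the 3 motifs was found in the Inhba window. The E-box CANNTG, searched on both strands and not marked, was found at position -196 of Id2. Of the 11 members that were apart, 6 had a window in the table (Fstl1, Grem1, Id2, Inhba, Ltbp2 and Smad1), and of these GGCGCC was in 2, CAGACA in 0, TGANTCA in 0 and CANNTG in 2. Over 32851 windows of the same length, 11.9% held GGCGCC, 21% CAGACA, 7.81% TGANTCA and 72.3% CANNTG. GC content was 47.7% in the Inhba window, 70.7% in that of Grem1 and 63.3% in that of Id2.

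Of the 8 receptors, 7 were measured, and 0 of these were apart in any comparison. Over all loci, 5.92% were apart for day 5 over day 0, 4.72% for day 15 over day 0 and 0.783% for day 15 over day 5. With 7 genes, a count of 0 is near these shares. The order of Tgfbr1 and Tgfbr2 by value differed between uninjured and injured corneas. Tgfbr2, the type II receptor that binds ligand first, had an FPKM of 19.4 (10.7 to 28.1) at day 0, 45.2 (24.8 to 65.6) at day 5 and 47.0 (27.8 to 66.3) at day 15. Tgfbr1, the type I kinase it recruits, had 40.1 (22.1 to 58.1), 16.4 (9.09 to 23.8) and 19.7 (11.1 to 28.4) FPKM at the same days. At day 0 the ratio of Tgfbr2 to Tgfbr1 was 0.483, and it was 2.75 at day 5 and 2.38 at day 15. The intervals of the 2 genes overlapped at day 0 and at day 15, and at day 5 that of Tgfbr2 began at 24.8, above the upper bound of 23.8 for Tgfbr1.

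Both receptor differences from day 0 narrowly missed the call. For Tgfbr1 the day 5 upper bound of 23.8 exceeded the day 0 lower bound of 22.1, with a log2 ratio of -1.24. For Tgfbr2 the day 15 lower bound of 27.8 fell under the day 0 upper bound of 28.1, with a log2 ratio of 1.24, and Tgfbr2 was higher and apart at day 15 when groups were scaled by the median of ratios. Tgfbr3, or betaglycan, the co-receptor that presents TGF-beta2, was at 25.2 (13.2 to 37.2), 12.7 (6.22 to 19.2) and 13.9 (7.18 to 20.6) FPKM at days 0, 5 and 15, and was not apart.

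Of the BMP and activin receptors, Bmpr1a and Acvr2a had similar values on the 3 days, while Bmpr2 and Acvr1 had higher values after the burn and were not apart. Bmpr1a, the main type I BMP receptor by level, was at 27.1 (15.1 to 39.1), 28.4 (15.95 to 40.9) and 32.0 (17.9 to 46.1) FPKM at days 0, 5 and 15. Bmpr2, the type II BMP receptor, was at 11.8, 17.3 and 15.3, and Acvr2a, a type II receptor for activins, at 7.87, 7.25 and 8.64, on a locus 1.52 times the annotated span. Acvr1, a type I receptor also called ALK2, was at 3.04 (0.360 to 5.72), 6.12 (1.86 to 10.4) and 5.76 (1.51 to 10.0). Its log2 ratio was 0.82 at day 5 and 0.74 at day 15, with overlapping intervals. Bmpr1b was at 0.107, 0.112 and 0.221, with each interval starting at 0. The log2 ratio of Bmpr1a was 0.06 at day 5 and 0.23 at day 15, although intervals of this width would also hold a sizeable change.

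**Figure D3:**
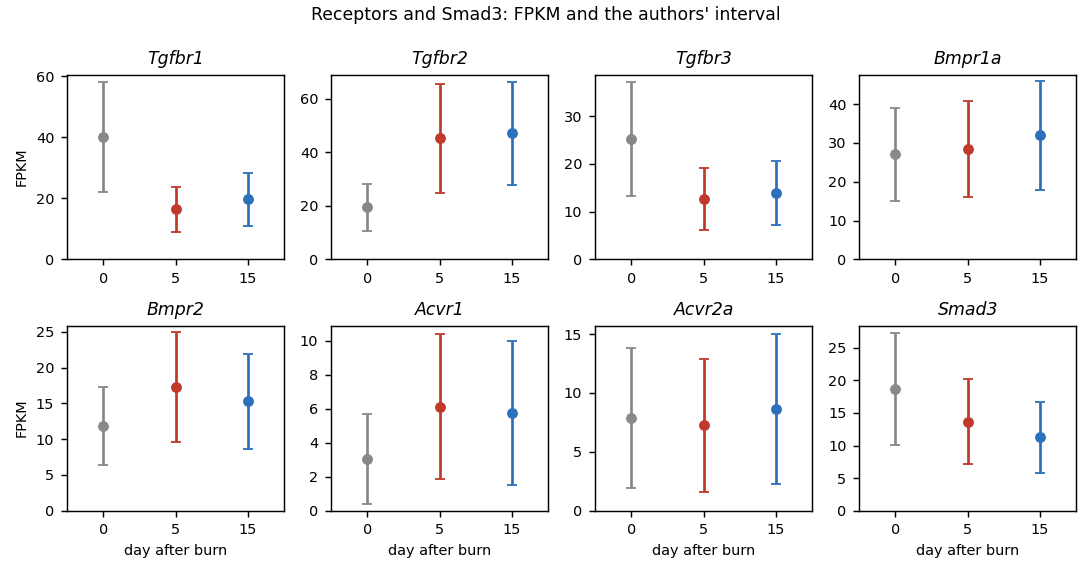
FPKM (vertical axes, linear, a scale for each panel) of 7 receptor genes and Smad3 at days 0, 5 and 15 (horizontal axes), with points for the authors' pooled FPKM and bars for their interval. Tgfbr1 and Tgfbr3 are highest at day 0 and Tgfbr2 lowest at day 0, and the intervals of each gene overlap between days.

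Among the Smad genes the BMP-branch transducer Smad1 (chr8:79338398-79399468) was the one that was apart. Its FPKM was 6.06 (2.43 to 9.69) at day 0, 20.04 (10.7 to 29.3) at day 5 and 16.8 (8.94 to 24.6) at day 15, which was 3.3-fold higher and apart at day 5 and 2.77-fold higher and overlapping at day 15, and the day 5 call was lost at a 3-fold threshold on the (FPKM + 1) scale. Smad3, a transducer of TGF-beta and activin, had 18.7 (10.0 to 27.3), 13.7 (7.14 to 20.2) and 11.2 (5.71 to 16.8) FPKM at days 0, 5 and 15, and was not apart. The ratio of Smad1 to Smad3 was 0.325 at day 0, 1.46 at day 5 and 1.49 at day 15. At day 0 the interval of Smad3 lay above that of Smad1, and at days 5 and 15 the intervals overlapped.

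Smad2 was at 7.99, 6.89 and 7.93 FPKM and the common partner Smad4 at 14.1, 19.0 and 17.3 at days 0, 5 and 15. The inhibitory Smad7, itself induced by TGF-beta, was at 1.23 (0.258 to 2.2), 2.65 (0.866 to 4.43) and 2.49 (0.822 to 4.15), and the inhibitory Smad6 at 5.25 (0 to 11.3), 2.57 (0 to 5.35) and 3.53 (0.190 to 6.88). None of these 4 was apart. Skil (chr3:31094964-31123852) encodes SnoN, a repressor that binds Smads and is itself a TGF-beta target. It had an FPKM of 11.2 (6.23 to 16.2) at day 0, 40.4 (23.3 to 57.6) at day 5 and 24.6 (13.6 to 35.6) at day 15. Skil was 3.6-fold higher and apart at day 5, and 2.19-fold higher with overlapping intervals at day 15.

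The Id genes, which encode inhibitors of basic helix-loop-helix transcription factors and are textbook BMP targets, did not all have values on the same side of day 0. Id2 (chr12:25093799-25096092) had an FPKM of 247 (136 to 358) at day 0, 55.7 (29.1 to 82.3) at day 5 and 83.5 (45.6 to 121) at day 15. It was lower and apart at both times, by 4.44-fold at day 5 and 2.96-fold at day 15, and at day 15 it did not pass a 3-fold threshold on the (FPKM + 1) scale. Id1 had higher values after the burn, at 106 (57.7 to 154), 233 (130 to 335) and 199 (112 to 287) FPKM at days 0, 5 and 15, with a log2 ratio of 1.13 at day 5 and overlapping intervals. Id3 was at 71.6 (29.2 to 114), 91.0 (42.9 to 139) and 65.4 (28.3 to 103), and Id4 at 4.51, 1.45 and 2.0 on a locus of 46.2-fold the length of its gene model.

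The summed FPKM of the 4 Id genes differed less than its parts, at 429 at day 0, 381 at day 5 and 350.3 at day 15. Id2 made up 57.5% of that sum at day 0, 14.6% at day 5 and 23.8% at day 15, and Id1 24.7%, 61.1% and 56.9%. At day 0 the intervals of Id1 and Id2 overlapped, and at day 5 the whole Id1 interval lay above that of Id2.

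Tgfbi, a secreted matrix protein named for its induction by TGF-beta and known for its mutations in corneal dystrophies, was not higher after the burn. Its FPKM was 351 (178 to 525) at day 0, 235 (132 to 338) at day 5 and 222 (128 to 315) at day 15, with overlapping intervals. It had the highest value of the 46 genes in all 3 groups, but its interval overlapped that of Id2 at day 0 and those of Id1 and Fstl1 at days 5 and 15, so that its first place is not settled. The transcription factors of epithelial-mesenchymal transition were low. Snai2 was at 3.64 (1.03 to 6.24), 7.15 (3.49 to 10.8) and 8.24 (4.08 to 12.4) FPKM at days 0, 5 and 15, and Snai1 at 0.578, 1.16 and 0.346, and neither was apart.

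**Figure D4:**
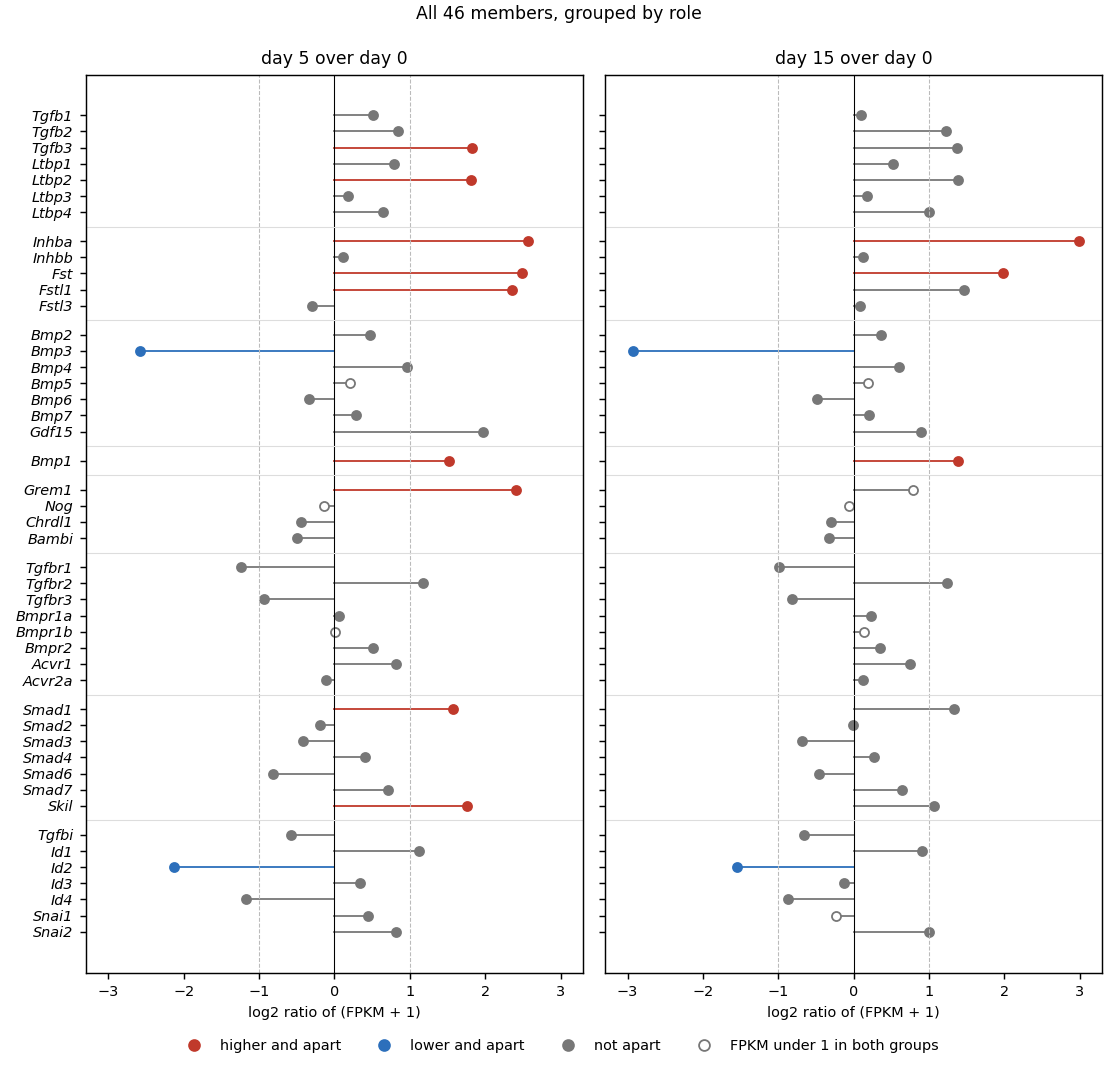
Log2 ratio of (FPKM + 1) (horizontal axes) for each of the 46 members, grouped by role from ligands at the top to targets at the bottom, for day 5 over day 0 (left) and day 15 over day 0 (right). Red and blue mark members higher or lower and apart, grey members not apart, open circles members under an FPKM of 1 in both groups, and dashed lines a ratio of 1 in size. Red points number 9 on the left and 3 on the right, and the blue points on both sides are Bmp3 and Id2.

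Day 15 was also set against day 5, within the injured corneas. No member was apart, 0 of 41, where 0.783% of all 14683 loci were apart, 0.395% higher and 0.388% lower, and the intervals of all 46 members overlapped between these days. The median log2 ratio was -0.09, against -0.01 over all loci, with 16 members higher and 25 lower by value at day 15. The ratios ran from -1.63 for Grem1, at 0.880 FPKM at day 15 and 4.82 at day 5, to 0.58 for Id2, at 83.5 and 55.7. Fstl1 had a ratio of -0.89 and Skil of -0.69. Inhba was higher by value at day 15, with a ratio of 0.42. Members that were apart from day 0 at day 5 alone, such as Tgfb3 and Skil, were therefore not shown to differ between the injured groups.

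Other genes of the pathway were taken from a list of 75 symbols, on 76 loci, that holds none of the 46. For day 5 over day 0 their median log2 ratio was 0.45, and 8 of 49 measured loci (16.3%) were called higher and 1 (2.04%) lower, against 3.42% and 2.5% of all loci. For day 15 over day 0 the median was 0.31, and 4 of 50 (8.0%) were called higher and 1 (2.0%) lower, against 2.91% and 1.81% of all loci. The shares called lower are near those of all loci. Among 20 further ligands and 9 further receptors and co-receptors none was apart at any time. For day 5 over day 0, 5 of these ligands and 6 of these receptors were measured. With so few genes, counts of 0 are near the 5.92% of all loci that were apart. At both day 5 and day 0, 15 of the 20 ligands were under an FPKM of 1.

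The secreted and matrix regulators held most of these genes. Aspn, or asporin, a small proteoglycan that binds TGF-beta, was 12.7-fold higher and apart at day 5, at 115 (43.6 to 186) FPKM against 9.04 (0 to 22.9) at day 0. Fbn1 and Fbn2 encode fibrillins, the microfibril proteins to which LTBPs attach. Fbn2 was 12.8-fold higher at day 5, at 15.0 (8.26 to 21.8) against 1.18 (0.278 to 2.08), and Fbn1 was 5.54-fold higher, at 52.9 (26.5 to 79.3) against 9.55 (4.42 to 14.7). Both were also higher and apart from day 0 at day 15, Fbn2 by 4.29-fold at 5.04 (2.40 to 7.69) FPKM and Fbn1 by 3.59-fold at 34.3 (17.8 to 50.8). Fbn2 was the single listed pathway gene apart between the injured groups, 2.98-fold lower at day 15 than at day 5. Thbs1, thrombospondin 1, which can release TGF-beta from its latent complex, was 4.06-fold higher and apart at day 5, at 295 (142 to 447) against 72.5 (39.4 to 106).

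Bmper, a secreted BMP-binding protein, was lower and apart at both times, as Bmp3 was. It had 24.1 (11.6 to 36.6) FPKM at day 0, 3.42 (0.807 to 6.04) at day 5 and 3.52 (0.928 to 6.12) at day 15. Tll1, a protease of the Bmp1 family, was higher and apart at day 15, at 4.66 (1.87 to 7.45) FPKM against 0.870 (0 to 1.78) at day 0. Htra1, a secreted protease, was higher and apart at day 15 as well, at 106 (60.9 to 150) against 38.5 (21.5 to 55.5). Of 18 intracellular regulators, 17 were measured. Of these, 2 (11.8%) were higher and apart at day 5 and 0 at day 15, against 3.42% and 2.91% of all loci. One is Pmepa1, a TGF-beta target that feeds back on Smads, at 21.7 (11.02 to 32.3) FPKM at day 5 against 5.09 (1.38 to 8.81) at day 0. The other, Fkbp1a, an immunophilin that holds the type I receptor inactive, was named after its values were seen and was 3.70-fold higher.

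**Figure D5:**
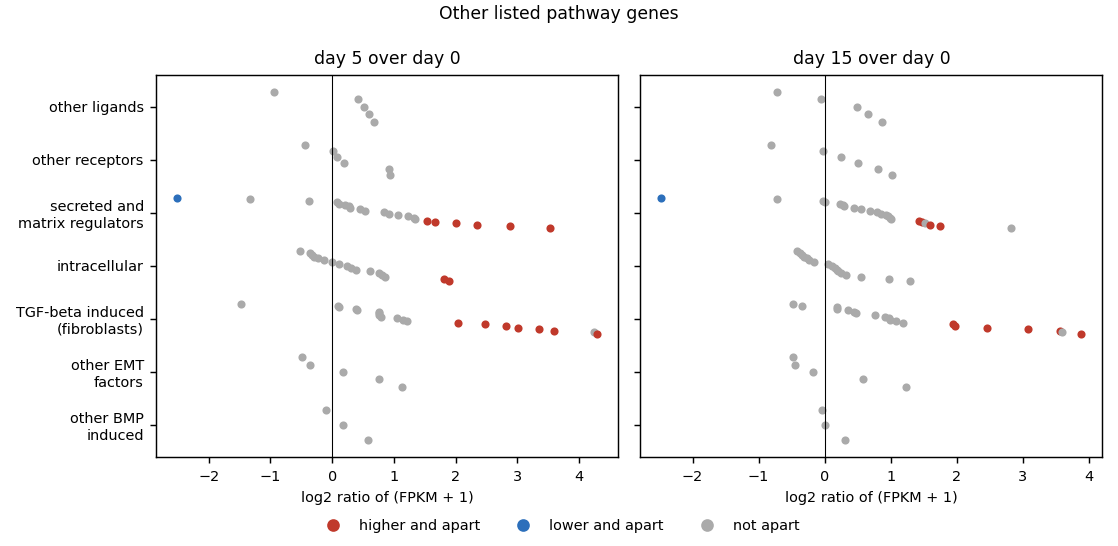
Log2 ratio of (FPKM + 1) (horizontal axes) for other listed pathway genes with FPKM of at least 1 in any group, in rows by list, for day 5 over day 0 (left) and day 15 over day 0 (right). Each point is a locus, in red when higher and apart, in blue when lower and apart and in grey when not apart. The secreted and matrix regulators and the genes induced by TGF-beta in fibroblasts hold most red points, and Bmper is the blue point on both sides.

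Of 20 genes that TGF-beta induces in fibroblasts, 7 passed the call rule for day 5 over day 0, each of them higher, and 13 did not pass. Their median log2 ratio was 1.10. For day 15 over day 0 the median was 0.98, and 6 passed, again each higher, while 14 did not. These counts are 35.0% and 30.0% of the list, against 3.42% and 2.91% of all loci. Cthrc1, a secreted protein of activated fibroblasts, was at 18.5 (7.0 to 30.0), 197 (114 to 280) and 106 (59.3 to 153) FPKM at days 0, 5 and 15. Lox, the collagen cross-linking enzyme that Bmp1 processes, was at 1.79 (0.789 to 2.78), 18.6 (10.6 to 26.6) and 9.90 (5.43 to 14.4). Acta2, the smooth muscle actin of myofibroblasts and mural cells, was at 17.1 (4.93 to 29.3), 99.9 (47.4 to 152) and 68.9 (34.3 to 103). All 3 were apart from day 0 at both times, as were Col3a1, Postn and Tnc. Ctgf, a standard early target named after its values were seen, was at 56.2 (25.3 to 87.0), 96.2 (53.4 to 139) and 63.8 (35.6 to 92.0) and was not apart. Of 6 further transcription factors of epithelial-mesenchymal transition and 8 further BMP-induced genes, none was apart. Against day 0, 5 of the 6 were measured, and of the 8 only 3 at day 5 and 2 at day 15. With so few genes, counts of 0 are near the 5.92% and 4.72% of all loci that were apart.

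Markers of other cells differed in the same samples, and their part in these results was not tested. In whole tissue, fewer cells of a type and less RNA per cell cannot be told apart. Over all loci, 3.42% were higher and 2.5% lower and apart at day 5, and 2.91% and 1.81% at day 15, each against day 0. Summed over 13 blood endothelial markers, FPKM was 36.5 at day 0, 225 at day 5 and 164 at day 15. Of 12 measured, 7 were higher and apart at day 5 and 8 at day 15. Erg was the most abundant in each group, at 12.0, 118 and 56.3, and was the 1 marker of this list lower and apart at day 15 against day 5. Over 14 macrophage markers the sums were 757, 1284 and 1653, with 4 and 6 loci higher and apart. Cd68 lies on a locus merged with other genes, at 579, 587 and 559 FPKM, and without it the sums were 178, 697 and 1094. Neutrophil markers, 11 of 12 matched on 14 loci, gave 38.0, 1656 and 867. Of 9 loci measured at day 5 and 6 at day 15, 6 and 4 were higher and apart. Ltf, on its most abundant locus, was at 15.7, 1243 and 760, most of the sums after the burn. Mpo, Elane and Retnlg were listed at 0 at day 0, and Mpo, Elane, Camp and Ngp stayed under an FPKM of 1 in all 3 groups. The 10 keratocyte and fibroblast markers summed to 1797, 1783 and 2071, with 3 higher and 2 lower and apart at day 5 and 1 higher and 2 lower at day 15. These sums hold values that went opposite ways. Kera, at 516, 11.2 and 16.2, and Aldh1a1, on a merged locus at 187, 13.0 and 38.7, were the 2 lower ones. Col1a1, the most abundant, was at 695, 1179 and 1472 and was not apart, and is also among the 20 genes induced by TGF-beta.

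The surface epithelium, the corneal endothelium and neighbouring tissues differed too. The 5 corneal endothelial markers summed to 191, 234 and 201 FPKM at days 0, 5 and 15. Col8a1, at 11.1, 42.3 and 26.9, was the 1 higher and apart at both times. Slc4a11, at 55.9, 3.10 and 1.04, was the 1 lower and apart at both times. Each is 20% of the list, against 3.42% higher and 2.5% lower over all loci at day 5, and 2.91% and 1.81% at day 15. The 12 corneal epithelial markers summed to 25566, 5722 and 8401 FPKM at days 0, 5 and 15, a day 0 sum that lacks Krt12, which was given as 0 there with a status of too many fragments. Slurp1, at 11780, 1.12 and 0.971, and Aldh3a1, at 9150, 303 and 866, made up most of the day 0 sum, and were lower and apart at day 5. Of the 11 markers measured at day 5 against day 0, 5 had higher values (Krt14, Krt15, Cdh1, Epcam and Clu, of which Clu was apart) and 6 lower ones, with a median log2 ratio of -0.17. The 9 conjunctival and goblet cell markers summed to 1801, 4459 and 11053, with 5 higher and apart at day 5 and 7 at day 15, against 3.42% and 2.91% of all loci. The 12 lens markers summed to 404, 54.3 and 272, the 7 iris and pigment markers to 365, 85.4 and 250.5, the 8 photoreceptor markers to 56.5, 22.6 and 103, and the 12 skeletal muscle markers to 764, 457 and 111. Bmp3 and Id2 had their highest value at day 0, as did the epithelial, lens, iris and pigment, and skeletal muscle sums. The endothelial sum was highest at day 5, and the conjunctival and photoreceptor sums at day 15. The part of these tissues in the values of Bmp3 and Id2 was not tested.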

How the data were processed

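Polyadenylated RNA of whole mouse corneas was sequenced in 3 groups of 2 samples. The authors deposited 1 table of 28539 loci with an FPKM and its lower and upper bound per group, pooled over samples. Per the submitters' processing notes, the tools were Cuffdiff, Cufflinks 2.2.1, Bowtie2 2.2.6 and TopHat2 2.1.0 and the build was mm10, with no settings given. How the interval was set, and the strand setting, are not given in the sources used here. Pooling hides the spread between samples, so no test was run, and depth is unknown.

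The call rule (a larger FPKM of 1 or more, log2 ratio of (FPKM + 1) of 1 or more in size, intervals without overlap, status OK) was applied to all loci in 3 comparisons. A check on simulated data planted changes only in loci with a mean FPKM of at least 5. It therefore does not cover calls on genes with a lower mean. The 46 members, the lists and the markers were chosen with earlier results of these data known. All members are given; other pathway genes are named if apart, up to 6 per comparison from the pathway list and from the list of induced genes. Coordinates are 1-based on mm10 and were compared with GENCODE M21 (GRCm38): all 46 loci overlapped the annotated gene, and 12 members share exon bases with a gene on the other strand. RefSeq promoter windows (GRCm38.p6) were found for 30 of the 46. The 9 alternatives run varied the pseudocount, filter, fold, interval rule, scaling and merged loci. Python 3.11.15, numpy 2.4.6, pandas 2.3.3 and matplotlib 3.10.9 were used.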

Additional observations from a re-analysis of the deposited data

How the results depend on the processing

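No paired analysis was possible because the table has 0 columns for single samples; leaving out each replicate could not be run for the same reason. Of 1242 values of single members under the 9 alternatives, 1218 kept their status as called or not called, 8 lost the call and 16 gained it. The sign was compared for called values alone, and 0 of these changed sign. The interval rule mattered most. Without it, members apart numbered 16 for day 5 over day 0 (11 with it), 13 for day 15 over day 0 (5 with it) and 2, Grem1 and Gdf15, for day 15 over day 5 (0 with it), and the other pathway genes apart numbered 14, 10 and 3 (9, 5 and 1 with it). With a 3-fold threshold, 3 members and 3 other pathway genes were apart for day 15 over day 0, and 0 other pathway genes for day 15 over day 5. With a pseudocount of 5, 3 other pathway genes were apart for day 15 over day 0 and 0 for day 15 over day 5, and the median of the members was 0.30 for day 5 over day 0 (0.47 with a pseudocount of 1) and -0.048 for day 15 over day 5 (-0.09). With an FPKM of at least 5 asked of the higher group, the median for day 15 over day 0 was 0.53 (0.27 with at least 1). Over all loci, calls without the interval rule were 1687 higher and 1722 lower for day 5 over day 0 (533 and 389 with it), 1270 and 1432 for day 15 over day 0 (442 and 275), and 384 and 492 for day 15 over day 5 (58 and 57). Wide intervals and the unknown depth limit what can be said of members under an FPKM of about 5.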
